A study of Saccharomyces cerevisiae with 4 samples.

Results

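The PAU, DAN and TIR genes of budding yeast (Saccharomyces cerevisiae) encode mannoproteins of the cell wall, from short Pau proteins to longer ones such as Dan4. They were found by symbol in the probe annotation of the array. Of 9335 probe sets, 28 carried a member's symbol, and they read 30 of the 5923 genes the annotation names. Of the 28 sets, 10 were annotated to 1 PAU gene, 6 to 1 DAN or TIR gene, and 12 to several PAU genes at once. The 32 names searched stand for 30 genes, since DAN2 is a synonym of PAU23 and DAN3 of PAU24 in the reference gene table. Those genes were counted as PAU genes. DAN1, DAN4, TIR1, TIR2, TIR3, TIR4 and 10 PAU genes had a probe set of their own, and 14 PAU genes were read only by sets shared with other PAU genes. All 28 sets were tested.

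RNA came from 4 cultures, each on 1 array, with 2 wild-type cultures and 2 cultures of the mutant H3 K4,36,79R, in which lysines 4, 36 and 79 of histone H3 are arginine. Cultures of both groups grew in selective galactose medium and then spent 9 h in glucose, which in the mutant shuts off the wild-type H3 so that only mutant H3 is made. The strain background, the aeration of the cultures and whether the wild-type strain also carries a galactose-driven H3 gene are not given in the labels. No probe set is known to read the mutated codons, so the arrays do not check the H3 genotype.

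Cells growing in air keep most of these genes low. When oxygen or heme is lacking, the activator Upc2 turns on DAN and TIR genes, and repression by Rox1 and Mot3, which work with the Tup1-Cyc8 corepressor, is relieved. The major wall mannoproteins of aerated cells, Cwp1 and Cwp2, are then replaced by Dan1 and the Tir proteins. The Pau proteins, called seripauperins, form a large gene family of close sequence, and most of their genes lie near chromosome ends. Methylation of H3 lysine 79 by Dot1 and of lysine 4 by Set1 is known to limit the spread of Sir proteins from those ends, and Set2 methylates lysine 36.

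Levels are signals after each array was scaled to a common median. Changes are mutant minus wild type on the scale of log2(signal + 5.71), where the added pseudocount is the 20th percentile of all scaled signals, so that changes of dim sets are understated. Across 9275 probe sets without controls the arrays correlated with r = 0.990 within wild type, 0.986 within the mutant and 0.972 to 0.982 between groups, and the median change was 0.027. With 2 arrays a group, their number limits the precision of every value. In such bulk cultures, more cells that make an mRNA and more of it per cell cannot be told apart.

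None of the 28 sets passed limma at a Benjamini-Hochberg adjusted p under 0.05, the smallest being 0.0841 for PAU7. By this rule 0.0431% of the whole array was called higher in the mutant and 0.216% lower. No tool other than limma was run. At an unadjusted p under 0.05, 9 of the 28 sets were higher (32.1%) and 0 lower, beside 9.8% and 8.27% of all probe sets. Both mutant arrays lay above both wild-type arrays for 15 of the 28 sets (53.6%) and below them for 2 (7.14%). All probe sets gave 26.7% and 23.6%. The 28 sets are not 28 separate readings, since the several-gene sets repeat genes, and PAU9 alone is named in 7 of them. The shares of the 28 sets are therefore not shares of genes. The median change was 0.35 over single-gene PAU sets, 0.30 over DAN and TIR sets and 0.18 over several-gene sets. On the values as deposited, without median scaling, the same medians were -0.022, -0.096 and -0.13 and that of all probe sets was -0.255, and 5 of the 28 sets still lay above wild type in both mutant arrays, beside 7.83% of all probe sets.

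**Figure D1:**
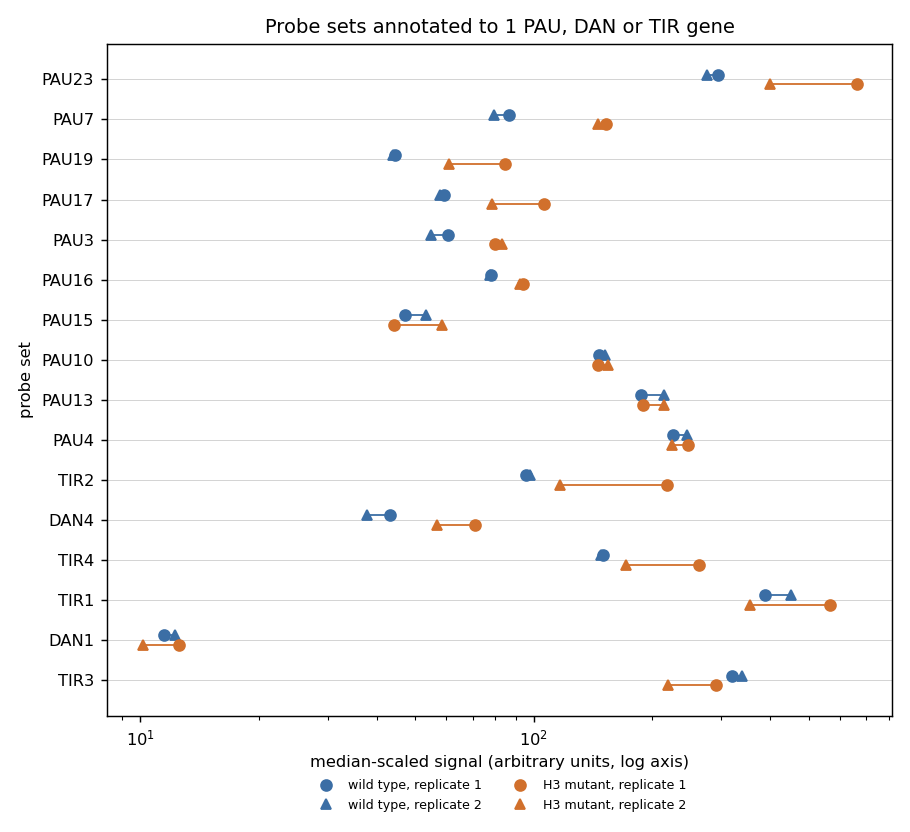
Median-scaled signal (log axis) of the 16 probe sets annotated to 1 PAU, DAN or TIR gene, with a circle for replicate 1 and a triangle for replicate 2 of wild type (blue) and of the H3 mutant (orange). Both mutant arrays lie above both wild-type arrays for 9 sets and below them for TIR3, and the largest spread between mutant arrays is that of TIR2.

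Among the PAU sets, 6 of 10 had groups that did not overlap, all higher in the mutant, and 4 had overlapping groups, where the shares of all probe sets were 26.7% higher and 23.6% lower. The Pau proteins are known mainly as a family, with few roles told apart between members. The PAU7 set read 86.6 and 79.3 on the wild-type arrays and 153 and 146 on the mutant arrays, a change of 0.81 ± 0.14 (SE, n = 2 a group; limma adjusted p = 0.0841). Both mutant arrays were well above wild type, and they differed from each other by only 0.063 on the log2 scale. PAU7 was called in 2 other limma fits: adjusted p was 0.0449 when probe sets with a mean below the pseudocount were left out (1.38% called higher) and 0.0474 with 1 probe set per gene (1.33% called higher). Over the alternatives with no replicate block, its adjusted p ran from 0.0449 to 0.278, the highest without wild-type replicate 2. With replicate numbers as a block, PAU7, PAU23, TIR2 and the set of PAU7 and PAU5 passed (adjusted p = 0.00531 for PAU7), but the block raised the calls on the whole array from 24 to 794.

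PAU23 read 295 and 276 on the wild-type arrays and 663 and 398 on the mutant arrays (change 0.84 ± 0.26, limma adjusted p = 0.183). The mutant arrays differed from each other by more than the lower of them differed from wild type. PAU19 read 44.3 and 44.0 on the wild-type arrays and 84.7 and 61.1 on the mutant arrays (0.64 ± 0.19, limma adjusted p = 0.178). PAU17 read 59.2 and 57.8 on the wild-type arrays and 106 and 78.2 on the mutant arrays (0.59 ± 0.18, limma adjusted p = 0.185). In all 3, mutant replicate 1 was the high array and replicate 2 lay between it and wild type.

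PAU3 read 60.6 and 54.9 on the wild-type arrays and 79.8 and 83.3 on the mutant arrays, with the mutant arrays close together (0.46 ± 0.15, limma adjusted p = 0.197). PAU16 read 78.0 and 77.5 on the wild-type arrays and 94.2 and 92.4 on the mutant arrays, a smaller difference (0.25 ± 0.14, limma adjusted p = 0.410), which became -0.13 on the values as deposited. On that scale PAU7, PAU23, PAU3 and PAU19 still had both mutant arrays above both wild-type arrays, PAU19 only by 51.0 against 50.9.

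The other PAU sets had overlapping groups and changes near 0. PAU4 read 226 and 246 on the wild-type arrays and 247 and 225 on the mutant arrays (change 0.0017 ± 0.15). PAU13 read 188 and 215 on the wild-type arrays and 190 and 214 on the mutant arrays (0.0041 ± 0.16). PAU10 read 147 and 152 on the wild-type arrays and 146 and 154 on the mutant arrays (0.0053 ± 0.14). In each of these 3 sets the mutant arrays spanned almost the same range as the wild-type arrays, so the sign of their changes is not determined. PAU15 read 47.0 and 53.4 on the wild-type arrays and 44.2 and 58.5 on the mutant arrays (0.020 ± 0.19), with both wild-type values inside the mutant range. All 4 changes were negative on the values as deposited, from -0.34 to -0.39, where the median of all probe sets was -0.255.

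**Figure D2:**
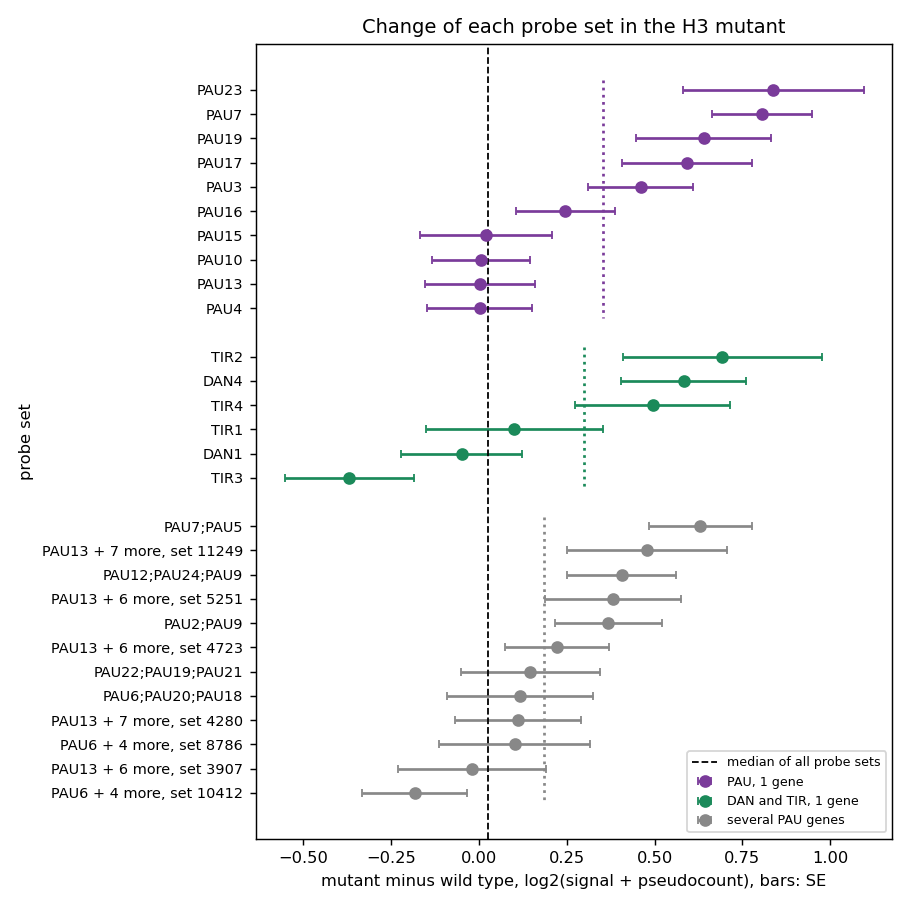
Mutant minus wild type on the log2 scale for all 28 probe sets, with bars for the SE from limma, dotted lines for the median of each class and a dashed line for the median of all probe sets (0.027). PAU sets run from 0.0017 to 0.84, DAN and TIR sets from -0.37 to 0.69 and several-gene sets from -0.18 to 0.63.

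Of the 6 DAN and TIR sets, 3 had both mutant arrays above wild type, 1 had them below and 2 overlapped. Of all probe sets, 26.7% lay apart and higher and 23.6% apart and lower. On the values as deposited, 7.83% of all probe sets lay above wild type in both mutant arrays, and no DAN or TIR set did. With 6 sets and that share, this does not tell the DAN and TIR sets from the PAU sets. TIR2 (0.31) and DAN4 (0.22) had larger changes on that scale than PAU3 (0.089), which lay apart. TIR2, whose protein is a wall mannoprotein also known from cold shock, read 95.6 and 97.9 on the wild-type arrays and 219 and 117 on the mutant arrays, a change of 0.69 ± 0.28 (limma adjusted p = 0.275). TIR4, the gene next to TIR2 on chromosome XV and needed for anaerobic growth, read 150.4 and 148 on the wild-type arrays and 264 and 172 on the mutant arrays (0.50 ± 0.22, limma adjusted p = 0.304). The wild-type arrays were close together for both genes, and mutant replicate 1 was far above replicate 2. AUS1, a sterol importer gene on the other side of TIR2, had overlapping groups and a change of 0.30 on its brightest set without a suffix for shared sequence, while its 5 other sets ranged from -0.61 to 0.23.

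DAN4, a wall mannoprotein gene, read 43.2 and 37.8 on the wild-type arrays and 70.8 and 56.7 on the mutant arrays (0.58 ± 0.18, limma adjusted p = 0.183), with no overlap. DAN1, its neighbour on chromosome X and the best known gene of the delayed anaerobic class, read 11.5 and 12.3 on the wild-type arrays and 12.5 and 10.1 on the mutant arrays (-0.049 ± 0.17, limma adjusted p = 0.914). Its wild-type values lie inside the mutant range. DAN1 read at most 12.5 on any array, near the pseudocount of 5.71, where changes are understated. DAN4 had groups apart and DAN1 did not, but their signals are not alike, and the difference between the 2 genes was not tested.

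TIR1, a mannoprotein gene of cold shock and anaerobic growth, read 387 and 450 on the wild-type arrays and 566 and 354 on the mutant arrays (0.10 ± 0.25, limma adjusted p = 0.873). The mutant arrays lay on either side of both wild-type arrays. TIR3 is a mannoprotein gene needed for anaerobic growth. Among member genes with a set of their own, only TIR3 had groups apart in the other direction. It read 318 and 339 on the wild-type arrays and 291 and 220 on the mutant arrays (-0.37 ± 0.18, limma adjusted p = 0.348). On the values as deposited its change was -0.76 (limma adjusted p = 0.0717), the smallest adjusted p of the members there. The median of all probe sets on that scale was -0.255.

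PAU genes and DAN and TIR genes had close medians over the whole comparison, but not in each mutant array. Relative to the wild-type mean, the median of the PAU sets was 0.35 in mutant replicate 1 and 0.31 in replicate 2, while that of the DAN and TIR sets was 0.58 in replicate 1 and 0.021 in replicate 2. All 6 DAN and TIR sets and 6 of 10 PAU sets were higher in mutant replicate 1 than in replicate 2. The median difference was 0.50 for DAN and TIR sets and 0.045 for PAU sets. It was not confined to DAN and TIR sets, since PAU23 (0.73), PAU19 (0.44) and PAU17 (0.41) were also higher in replicate 1. PAU3, PAU10, PAU13 and PAU15 were lower there. Of the 12 several-gene sets 9 were higher in replicate 1, with a median difference of 0.225. Over all 9275 probe sets 5815 were higher in replicate 1, with a median difference of 0.10. The PAU median minus the DAN and TIR median was 0.055 with all arrays, 0.29 without mutant replicate 1, -0.24 without mutant replicate 2 and -0.028 without wild-type replicate 2, so the order of the classes turned when either of these replicate 2 arrays was left out. TIP1, a wall mannoprotein gene related to the TIR genes, also read high in mutant replicate 1. It read 978 and 1014 on the wild-type arrays and 1996 and 1155 on the mutant arrays (0.61 ± 0.30, limma adjusted p = 0.347). Every other gene of its list, the counterparts used in air given below, also read higher in mutant replicate 1 than in replicate 2. Among them were PET9 (1225 and 798) and HYP2 (3069 and 2443), so the difference was not particular to wall genes. Whether a state of that culture has a part in these values was not tested.

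**Figure D3:**
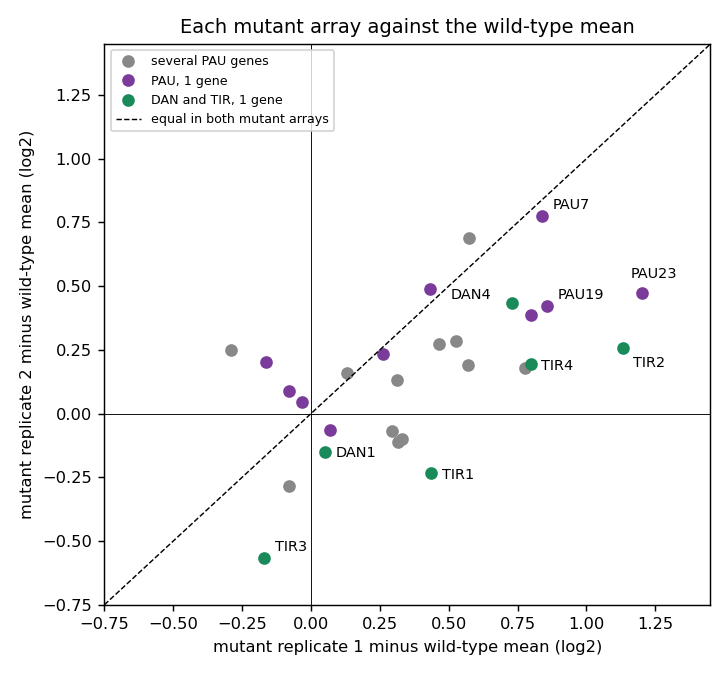
Log2 difference of each probe set from the wild-type mean in mutant replicate 1 (horizontal axis) and in mutant replicate 2 (vertical axis), with a dashed line where both are equal. All 6 DAN and TIR sets lie below the line, and PAU7 lies close to it at 0.84 and 0.78.

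The 12 several-gene sets were shown apart, since no value in them belongs to 1 gene. Their annotation named only PAU genes, and 11 of them, like all 10 single-gene PAU sets, carry the suffix that marks a family of similar sequences, so that even a single-gene PAU set can take signal from other PAU mRNAs. The 6 DAN and TIR sets carry no such suffix. Of the 12 sets, 6 had both mutant arrays above both wild-type arrays, 1 had them below, and 5 overlapped, against 26.7% and 23.6% of all probe sets. At an unadjusted p under 0.05, 2 of the 12 were higher (16.7%), against 9.8%.

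The set of PAU7 and PAU5 read 181 and 172 on the wild-type arrays and 265 and 288 on the mutant arrays (0.63 ± 0.15, limma adjusted p = 0.123). It lay apart from wild type in both mutant arrays, as PAU7's own set did. The set of PAU12, PAU24 and PAU9 read 150 and 157 on the wild-type arrays and 224 and 188 on the mutant arrays (0.41 ± 0.16, limma adjusted p = 0.250). The set of PAU2 and PAU9 read 125 and 138 on the wild-type arrays and 183 and 160 on the mutant arrays (0.37 ± 0.15, limma adjusted p = 0.277). Both had groups that did not overlap on the scaled values.

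Sets with the same annotation did not give the same change. Of the 2 sets annotated to PAU1 and 7 further PAU genes (PAU8 to PAU14), one read 151 and 174 on the wild-type arrays and 282 and 185 on the mutant arrays (0.48 ± 0.23, limma adjusted p = 0.327). The other read 195 and 220 on the wild-type arrays and 255 and 197 on the mutant arrays (0.11 ± 0.18, limma adjusted p = 0.785). The first had groups apart and the second did not, and the difference between their changes was not tested. Of the 2 sets annotated to PAU1, PAU6, PAU14, PAU18 and PAU20, one read 131 and 130 on the wild-type arrays and 123 and 106 on the mutant arrays (-0.18 ± 0.15, limma adjusted p = 0.568), the lowest change of the several-gene sets. The other read 106 and 142 on the wild-type arrays and 154 and 113 on the mutant arrays, with overlapping groups (0.10 ± 0.21, limma adjusted p = 0.843).

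The set of PAU24 and PAU8 to PAU13 read 182 and 176 on the wild-type arrays and 224 and 196 on the mutant arrays (0.22 ± 0.15, limma adjusted p = 0.479), with groups apart. The set of PAU1, PAU8 to PAU11, PAU13 and PAU14 read 170.1 and 190.5 on the wild-type arrays and 146 and 215 on the mutant arrays (-0.021 ± 0.21, limma adjusted p = 0.974). Here the mutant arrays lay on either side of wild type, with replicate 2 the higher, unlike in most several-gene sets. The other 3 had changes from 0.12 to 0.38. The set of PAU22, PAU19 and PAU21 read only 5.35 to 9.34 over the 4 arrays, near the pseudocount, and gave 0.15 ± 0.20 where PAU19's own set gave 0.64. PAU10, PAU13 and PAU4 had no change on their own sets beyond 0.0053, while a set that reads them together with PAU8, PAU9, PAU11 and PAU12 gave 0.38 ± 0.19 (limma adjusted p = 0.357).

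**Figure D4:**
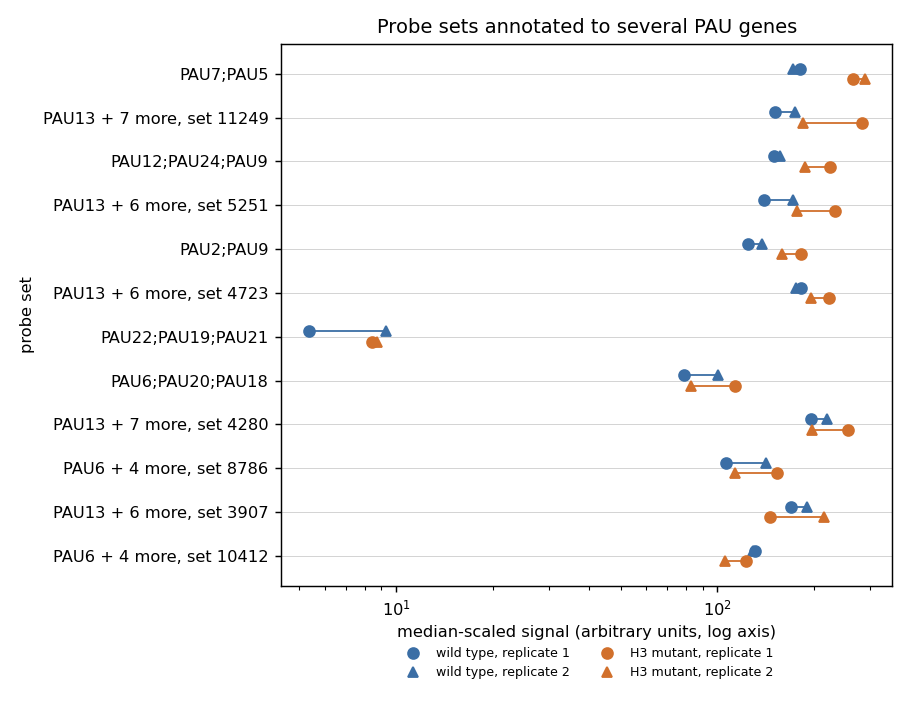
Median-scaled signal (log axis) of the 12 probe sets annotated to several PAU genes, with symbols and colours for arrays and groups as defined in the legend and numbers to tell apart sets of similar annotation. The PAU7 and PAU5 set lies highest above wild type, and the set of PAU22, PAU19 and PAU21 is dim on every array.

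By the order of protein genes in the reference table, 19 of the 24 PAU genes lie among the outermost 7 of their chromosome arm, and PAU2, PAU5, PAU7, PAU17 and PAU23 lie further in. The single-gene PAU sets were set against this rank, with the boundary chosen after their values were seen and no test. The 3 sets of genes further in, PAU7 (rank 15), PAU17 (rank 39) and PAU23 (rank 100), had changes of 0.59 to 0.84, and their groups did not overlap. The 7 sets of outer genes had changes of 0.0017 to 0.64 with a median of 0.020. Groups lay apart and higher for 3 of them, PAU3, PAU16 and PAU19. The share of all probe sets with groups apart and higher was 26.7%, and that with groups apart and lower was 23.6%. With 3 and 7 sets, and the boundary chosen as above, these counts do not tell genes further in from outer genes. PAU19 and PAU16 are each the outermost protein gene of their arm. Whether the outer genes differ from each other was not tested, and their sets can take signal from other PAU mRNAs. The several-gene set made only of genes further in, PAU7 and PAU5, had the largest change of its class. It also reads PAU7, so it is no separate reading from PAU7's own set. The DAN and TIR genes, of rank 11 to 177, had changes from -0.37 to 0.69.

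Coding length was looked at in the same way, with no test. PAU4, PAU10 and PAU13, with changes near 0, each have a coding length of 363 bases, while PAU3, PAU17, PAU19 and PAU23 have 375 and PAU16 has 372. PAU15, also of 375 bases, had a change of 0.020, and PAU7 is annotated with 168 bases.

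The genes next to the 16 single-gene members showed no common direction. Of 21 flanking genes with a probe set, 10 had a change above 0, 6 had groups apart and higher, 7 had groups apart and lower, and the median change was -0.003. Among all probe sets 26.7% were apart and higher and 23.6% apart and lower. By limma 0 passed at an adjusted p under 0.05, with 1 higher and 3 lower without adjustment, where all probe sets gave 9.8% and 8.27%. The highest was HSP104, a heat-shock chaperone gene beside PAU17, with 0.52 (limma adjusted p = 0.204). The lowest was YDR541C beside PAU10, with -0.82 (limma adjusted p = 0.123).

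**Figure D5:**
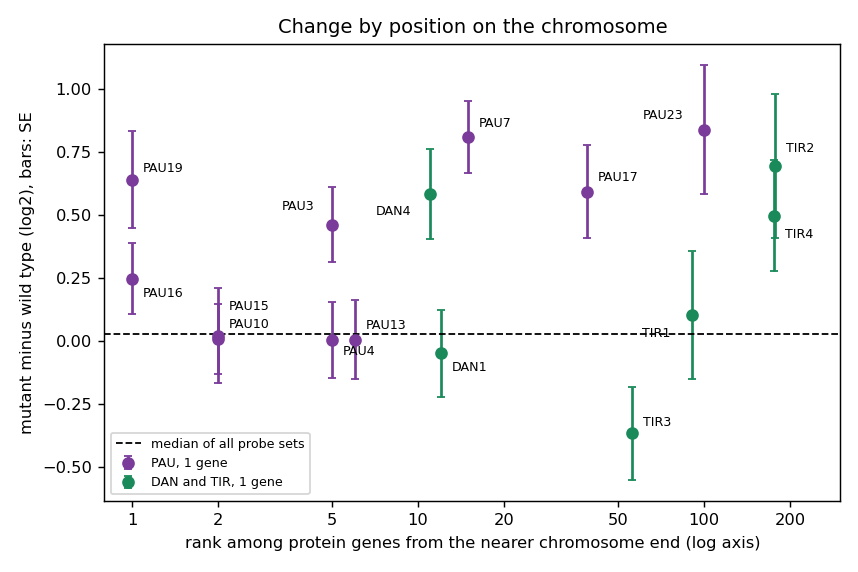
Change of the 16 single-gene probe sets (mutant minus wild type, log2, bars for the SE) against the rank of the gene among protein genes from the nearer chromosome end (log axis), with a dashed line for the median of all probe sets. PAU7, PAU17 and PAU23 lie at 0.59 to 0.84, and the PAU genes of rank 1 to 6 run from 0.0017 to 0.64.

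Of 10 genes for regulators of anaerobic genes, 0 passed limma in either direction, and their median change was 0.068. Without adjustment 2 were higher and 0 lower at p under 0.05, beside 9.8% and 8.27% of all probe sets. These 2 were ECM22 and HAP1, the latter on only 1 of its 3 sets. Groups lay apart and higher for 4 genes and apart and lower for 3, beside 26.7% and 23.6% of all probe sets. ECM22, a sterol-responsive activator related to Upc2, read 38.5 and 31.6 on the wild-type arrays and 92.8 and 72.4 on the mutant arrays, a change of 1.11 ± 0.19 (limma adjusted p = 0.0815). The groups lay far apart, and ECM22 passed limma without dim probe sets (adjusted p = 0.0348) and with 1 probe set per gene (adjusted p = 0.0397), as PAU7 did, and also without wild-type replicate 1 (adjusted p = 0.00505), where PAU7 did not (adjusted p = 0.115). Its adjusted p ran from 9.1e-05 with the block to 0.201 without mutant replicate 1. UPC2 read 12.7 and 10.5 on the wild-type arrays and 15.9 and 12.2 on the mutant arrays, with overlapping groups (0.18 ± 0.19). ROX1, the heme-dependent repressor, read 63.7 and 47.2 on the wild-type arrays and 31.6 and 46.2 on the mutant arrays (-0.46 ± 0.23, limma adjusted p = 0.351). Its lower wild-type array and its higher mutant array were almost equal.

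HAP1, the heme-responsive activator of genes for growth in air, gave 0.46 on the set without a suffix and -0.097 and 0.014 on its 2 family sets. CYC8 had -0.40 (limma adjusted p = 0.336) and its partner TUP1 0.10. MOT3 had -0.14 and read 11.9 to 14.8 on the 4 arrays.

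Other genes of cells short of oxygen had changes of both signs. Of 10 such genes 4 had changes above 0, the median was -0.027, and 0 passed limma in either direction, also at an unadjusted p under 0.05. By that unadjusted rule 9.8% of all probe sets were higher and 8.27% lower. CYC7, the hypoxic isoform of cytochrome c, had the largest change, from 70.2 and 92.9 to 105 and 119 (0.44 ± 0.18, limma adjusted p = 0.280). FET4, a low-affinity iron transporter gene, had the lowest, from 50.1 and 56.8 to 38.3 and 45.0 (-0.32 ± 0.17, limma adjusted p = 0.373). ANB1, the anaerobic form of the translation factor eIF5A, had overlapping groups and a change of 0.067, and the heme synthesis gene HEM13 had -0.28 (limma adjusted p = 0.495).

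Of 8 counterparts used in air, 0 passed limma in either direction, also at an unadjusted p under 0.05 (9.8% and 8.27% of all probe sets). The median was 0.055. Changes were -0.19 for CWP1 and -0.13 for CWP2, the wall mannoproteins that the DAN and TIR proteins replace, -0.025 for the wall protein gene SED1 and -0.21 for HYP2, the aerobic form of eIF5A and the lowest of the list. TIP1, given above, was the highest.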

How the data were processed

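Per the labels' protocols, about 20 ug of total RNA from cells at OD600 0.5 to 0.7 went onto single-colour Affymetrix arrays after biotin labelling. The authors deposited linear intensity values. MAS5 is named in the submitters' processing notes, with a version not given in the sources used here, and detection calls were not used here. Arrays differed in their deposited median (37.3 and 38.4 for wild type, 29.7 and 27.8 for the mutant), and were brought to 1 common median, the average of these, over the 9275 probe sets that are no controls. Another 60 are controls. The platform annotation names 1 gene on 6504 sets, several on 328 and no gene on 2443, and each of the 6504 was found by gene number in the reference table of assembly R64, used for names and gene order. Protein and promoter sequences were not used here.

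Groups follow the sample titles, and the series text calls the arrays replicate cultures. All 9275 probe sets entered 1 limma fit (version 3.58.1, R 4.3.3) with a trended eBayes prior and two-sided tests. Calls have an adjusted p under 0.05 by Benjamini-Hochberg, without a replicate block. The procedure was tested on simulated data with normal noise of a smoothed spread, where 99 of 100 changes of 2-fold were called. On the real arrays ECM22, with a log2 change of 1.11, was not called, so that rate does not hold for these data. SE is the moderated standard error, and class medians are descriptions. List genes use 1 set, without a suffix for shared sequence where possible and then the brightest. The rule gave full values to sets with an unadjusted p under 0.05, with a mean level among the 5 highest of their class, or with its highest or lowest change. Full values of other sets, and flanking genes, were added after values were seen. Of each list, the highest and lowest change were named by rule and other genes after their values were seen. Members and lists were chosen with earlier results of these data known. Alternatives were 3 other scalings, pseudocounts of 1 and 20, filters on probe sets, other variance models, a threshold of 0.1, the block and leaving out each array.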

Additional observations from a re-analysis of the deposited data

How the results depend on the processing

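The count of member sets called, 0, became 1 (PAU7) without dim probe sets, with 1 probe set per gene and at adjusted p under 0.1, and 4 with the replicate block (PAU7, PAU23, TIR2 and the PAU7 and PAU5 set), where 794 of 9275 probe sets were called in place of 24. Across probe sets, the replicate differences of the 2 groups had a correlation of -0.025. This 1 value cannot show whether same-numbered arrays share a day or handling, which the labels do not give. Calls over all probe sets were 36 with a pseudocount of 1, 5 with a pseudocount of 20, 1 with quantile normalization, 3 with the trimmed mean, 2 without trend, 56 with robust eBayes, 186 without dim sets, 130 with 1 set per gene, 2 without suffixed sets, 181 at adjusted p under 0.1, 708 as deposited, and 0 to 269 with 1 array left out (0 without either mutant array, 269 without wild-type replicate 1 and 159 without replicate 2). Without suffixed sets no PAU set is left, and with 1 set per gene no several-gene set. With 1 array left out, the fit takes the spread of the lone array from the other group.

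The PAU median of 0.354 was 0.334 with the trimmed mean, 0.376 with a pseudocount of 1, 0.299 with a pseudocount of 20 and 0.309 to 0.388 with 1 array left out. The DAN and TIR median was 0.0211 to 0.583 (without mutant replicates 1 and 2), the several-gene median 0.133 to 0.334 and the difference of classes -0.238 to 0.288. As deposited the medians were -0.0216, -0.0961 and -0.128, which is 0.233, 0.159 and 0.127 above that of all probe sets, and 5 sets in place of 15 lay above wild type without overlap, a count examined after seeing the data.

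As deposited, where every change falls by the scaling itself, signs turned for PAU4 (-0.392), PAU13 (-0.388), PAU10 (-0.383), PAU15 (-0.343), PAU16 (-0.132), TIR1 (-0.297), UPC2 (-0.0917) and 7 several-gene sets (-0.284, -0.281, -0.263, -0.169, -0.0877, -0.0197 and -0.0101). PAU4, PAU13 and PAU10 also turned with the trimmed mean (-0.0196, -0.0169 and -0.0155) and with controls kept (-0.00423, -0.0018 and -0.000608), and PAU4 with quantile normalization (-0.00997). With 1 array left out, changes ran from -0.151 to 0.0517 for DAN1, -0.234 to 0.436 for TIR1, -0.0333 to 0.0438 for PAU10, -0.0897 to 0.0979 for PAU13, -0.162 to 0.202 for PAU15, -0.0646 to 0.068 for PAU4, and for several-gene sets of overlapping groups from -0.289 to 0.248, -0.069 to 0.293, -0.0757 to 0.368, -0.111 to 0.315 and -0.098 to 0.331. Of 542 alternative values of 36 probe sets, 492 kept sign and side of the threshold, 40 turned sign and 10 passed it. The cause of these changes was not tested beyond what each setting does by construction.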
